A study of Mus musculus with 8 samples.

Results

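Immunoglobulin heavy variable segments, the Ighv genes, are the germline pieces that supply the leader and most of the variable domain of an antibody heavy chain. Of 185 annotated Ighv genes among 54715 annotated genes in the files, 105 reached a level of at least 1 TPM (a transcript level scaled per length and per library) in at least 1 of 8 colon RNA-seq libraries, and these 105 segments, chosen by that TPM value, are described here. The 80 others held little signal: 47 were listed at 0 in every library and 33 lay between 0 and 1 TPM. Just inside the limit were Ighv1-30, Ighv1-62-1 and Ighv1-50, with highest values of 1.06, 1.55 and 1.56 TPM. Just outside were Ighv1-28, Ighv1-43 and Ighv3-3, with 0.939, 0.871 and 0.761 TPM. The 105 segments held 99.8 to 99.9% of all Ighv signal in each library.

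The libraries came from flash-frozen colon or colonic polyps of BALB/cA mice that lacked DCIR, an inhibitory lectin of myeloid cells that is the product of Clec4a2 (genotype DCIR-/-, called knockout here), or were wild type. Each genotype had 1 library from untreated colon (steady state), 1 from day 12 after dextran sulfate sodium (DSS), which injures the colonic epithelium, and 2 from day 112 after azoxymethane with DSS, a carcinogen and colitis model of colon tumours, 1 from polyps and 1 from tissue labelled non-polyp. With 1 library per group there were no replicates, and nothing in the labels says which libraries share an animal or whether a library is a pool; the design text counts 5 samples where 8 are listed. Both genotypes share the BALB/cA strain. BALB/c mice carry other heavy chain alleles than the C57BL/6 mouse behind the reference genome, so a segment's value here is the signal placed on the C57BL/6 gene most like the transcript, and what that does to single segments was not tested.

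A developing B cell joins 1 Ighv segment to a diversity and a joining segment, and so transcribes a single rearranged heavy chain. In the gut, most antibody RNA comes from plasma cells that secrete IgA, so the spread of signal over Ighv segments describes which heavy chains those cells carry, and a clone that expands lifts its own segment. In bulk tissue, fewer cells of a type and less RNA per cell cannot be told apart. Usage below means a segment's TPM as a share of the library's summed Ighv TPM.

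Library checks bear on what follows. Clec4a2 was listed at 0 TPM in 3 knockout libraries and at 0.659 TPM in the library labelled knockout steady state, against 2.74 to 4.33 TPM in the wild-type libraries. The library labelled knockout non-polyp had 566 TPM of Wif1 and 31.7 TPM of Cnn1, a smooth muscle gene, close to the polyp libraries (503 and 626 TPM of Wif1, 17.3 and 60.1 TPM of Cnn1) and unlike wild-type non-polyp tissue (2.79 and 1193 TPM). Prostate and seminal vesicle genes summed to 3553 to 5752 TPM in the steady-state and DSS libraries and to at most 14.4 TPM at day 112. The aligned bases implied by the ratio of deposited coverage to FPKM ran from 2.70 to 3.35 gigabases per library. Read counts per segment are unknown, so no counting interval is given.

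Sequences are shown for the 4 segments that led at least 1 library or, for Ighv8-12, differed between genotypes at day 112. They are the last 300 bases of the spliced segment, 5′ to 3′, with the codons that end in the conserved cysteine before the last complementarity-determining region in capitals.
Ighv6-6: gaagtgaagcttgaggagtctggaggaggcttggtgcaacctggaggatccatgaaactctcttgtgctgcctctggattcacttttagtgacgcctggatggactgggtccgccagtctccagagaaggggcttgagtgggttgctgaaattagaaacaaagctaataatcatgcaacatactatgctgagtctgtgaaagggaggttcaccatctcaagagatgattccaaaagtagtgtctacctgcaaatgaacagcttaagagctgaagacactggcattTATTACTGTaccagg
Ighv3-6: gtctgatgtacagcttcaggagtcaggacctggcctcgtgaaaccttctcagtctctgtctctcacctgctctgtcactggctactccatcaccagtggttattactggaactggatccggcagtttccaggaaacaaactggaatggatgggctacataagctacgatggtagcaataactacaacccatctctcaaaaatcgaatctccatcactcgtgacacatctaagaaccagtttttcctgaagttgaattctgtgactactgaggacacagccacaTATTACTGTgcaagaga
Ighv1-14: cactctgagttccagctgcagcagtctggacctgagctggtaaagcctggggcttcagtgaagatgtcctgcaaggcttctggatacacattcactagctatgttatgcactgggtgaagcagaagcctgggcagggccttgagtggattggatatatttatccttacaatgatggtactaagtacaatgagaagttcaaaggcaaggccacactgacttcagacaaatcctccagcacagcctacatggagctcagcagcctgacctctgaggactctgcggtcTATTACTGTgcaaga
Ighv8-12: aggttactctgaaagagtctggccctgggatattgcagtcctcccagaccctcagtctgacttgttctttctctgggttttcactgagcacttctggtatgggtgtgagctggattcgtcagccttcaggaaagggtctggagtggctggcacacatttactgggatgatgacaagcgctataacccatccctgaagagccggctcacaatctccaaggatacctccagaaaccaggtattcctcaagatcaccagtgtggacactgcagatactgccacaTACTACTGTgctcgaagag
They were read from GENCODE vM21 transcripts on GRCm38, where the genes lie on the minus strand of chromosome 12 at chr12:114434788-114435244 (Ighv6-6, ENSMUSG00000076680), chr12:114288152-114288582 (Ighv3-6, ENSMUSG00000076672), chr12:114646572-114647056 (Ighv1-14, ENSMUSG00000104422) and chr12:115647945-115648387 (Ighv8-12, ENSMUSG00000076731). Ighv1-14 was 60.8% identical to Ighv6-6 and 58.6% to Ighv3-6 over the variable exon, and its nearest annotated relative was Ighv1-83 at 90.8%. The pattern TANTNNTGT, searched on the coding strand in the last 30 bases and widened after a narrower form missed some functional segments, was present in 99 of the 105 segments and in 49 of the 80 others.

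All 105 segments lie on the minus strand. By annotation 90 are IG_V_gene, of 113 such genes, and 15 are IG_V_pseudogene, of 70; the 2 IG_LV_gene entries held none. Relatives are close: the nearest other segment was a median 95.4% identical over the variable exon, and 58 of 105 had a relative at 95% or more. Ighv1-62-2 and Ighv1-71 were identical there. Reads may therefore be shared between such rows, and values of close relatives are uncertain one by one.

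Most segments were found everywhere. Of 105, 62 reached 1 TPM in all 8 libraries, and these 62 held 93.3 to 96.6% of the summed signal. In steady state 99 segments reached 1 TPM in knockout colon and 90 in wild-type colon. After DSS the counts were 73 in knockout and 85 in wild-type colon. At day 112 they were 90 in knockout and 88 in wild-type non-polyp tissue, and 85 in knockout and 82 in wild-type polyps. The knockout count was the higher one in 3 of 4 pairs, by 2 to 9 segments, and the lower one after DSS.

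**Figure D1:**
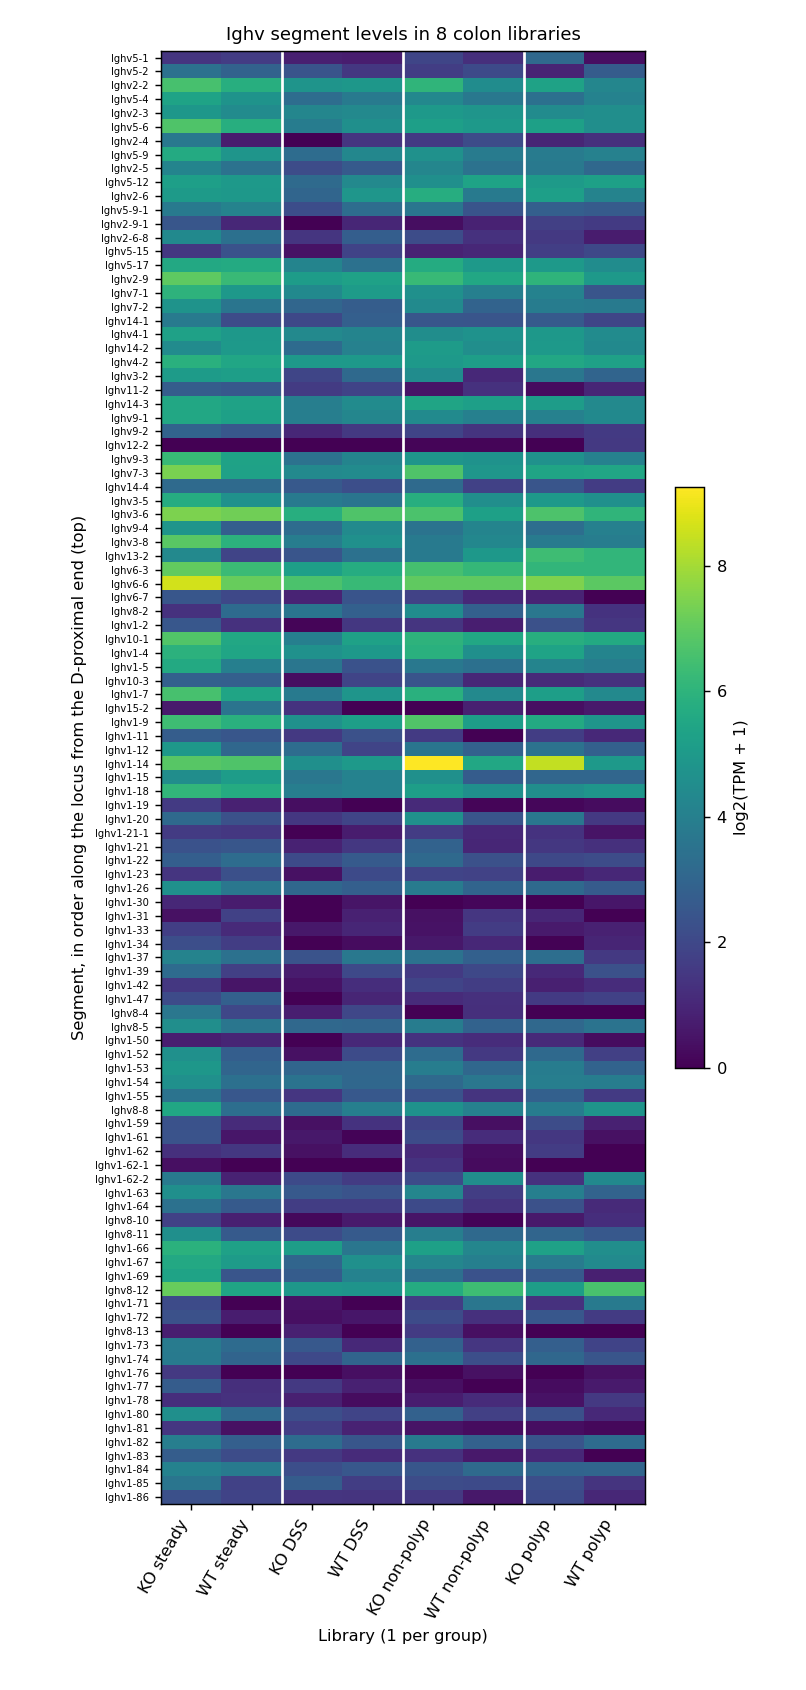
Level of each of the 105 Ighv segments, as log2(TPM + 1) by colour, in 8 libraries (columns, knockout left of wild type within each stage), with segments in order along the locus. The same rows are bright in most columns, and Ighv1-14 is brightest in the knockout non-polyp and polyp columns, at 611 and 338 TPM.

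Summed over the 105 segments, Ighv signal was 3535 TPM in knockout and 1984 TPM in wild-type steady-state colon. It was 895 TPM in knockout and 1155 TPM in wild-type colon after DSS. At day 112 it was 2568 TPM in knockout and 1313 TPM in wild-type non-polyp tissue, and 1946 TPM in knockout and 1326 TPM in wild-type polyps. Knockout libraries thus held 1.78, 0.775, 1.96 and 1.47 times the wild-type sum (steady state, DSS, non-polyp, polyp). The kappa light chain segments (Igkv) gave ratios of 1.45, 0.834, 1.76 and 1.32 in the same order. The summed heavy chain constant genes were 8619, 3680, 10368 and 7988 TPM in the knockout libraries, against 4645, 4543, 7479 and 6829 TPM in the wild-type libraries. Igha, the constant gene of IgA, made up 87.3 to 98.3% of them.

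Ighv6-6 was among the top 5 segments of all 8 libraries. Its level was 390, 97.8, 126 and 178 TPM in knockout libraries at steady state, DSS, non-polyp and polyp, against 138, 75.4, 127 and 120 TPM in wild-type libraries. Its usage stayed between 4.92 and 11.03%. Ighv3-6 and Ighv6-3 were each in the top 5 of 7 libraries, with usage of 2.87 to 8.96% and 3.45 to 5.33%. Only 11 segments filled the top 5 places of all libraries: besides these 3 they were Ighv1-14 (4 libraries), Ighv2-9 and Ighv8-12 (3 each), Ighv7-3, Ighv10-1 and Ighv13-2 (2 each), and Ighv1-9 and Ighv1-66 (1 each). Of the 21 segments in any top 10, 4 were in every top 10, namely Ighv2-9, Ighv3-6, Ighv6-3 and Ighv6-6.

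Ighv1-14 departed from this common set. Its level was 116, 23.6, 611 and 338 TPM in knockout libraries at steady state, DSS, non-polyp and polyp, against 104, 30.2, 45.9 and 31.3 TPM in wild-type libraries. Both knockout libraries of day 112 lay above all 6 others, which spanned 23.6 to 116 TPM. Its usage there was 23.8% in non-polyp and 17.4% in polyp tissue, against 2.36 to 5.24% in the 6 other libraries. The loci that the authors' assembly built from the reads gave 645 and 338 TPM over the gene in the knockout non-polyp and polyp libraries, against 45.9 and 31.3 TPM in the wild-type ones. The 645 TPM locus spans 3 Ighv genes. These loci hold the same reads as the annotated gene and are no second observation. Of 16855 genes with a mean of at least 1 TPM, 23 (0.136%) had both knockout libraries of day 112 at least 4-fold above both wild-type libraries, on log2(TPM + 1), and among the 94 segments that met this mean Ighv1-14 was the 1 that did. This 4-fold comparison was chosen after the values were seen, and has no test.

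The annotation calls Ighv1-14 a pseudogene. Its leader and that of Ighv1-9, a functional segment of the same family, are shown from the first ATG, with codon 5 in capitals.
Ighv1-14: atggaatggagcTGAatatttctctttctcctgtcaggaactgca
Ighv1-9: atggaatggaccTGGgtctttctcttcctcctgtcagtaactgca
The C57BL/6 sequence of Ighv1-14 has an in-frame stop there and Ighv1-9 has none in its leader. Whether the BALB/cA transcripts carry that stop cannot be read from these values. Pseudogenes held 26.8% and 21.8% of Ighv signal in the knockout non-polyp and polyp libraries, against 6.998% and 6.66% in the wild-type ones; without Ighv1-14 the 4 shares were 3.99%, 5.40%, 3.63% and 4.40%.

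**Figure D2:**
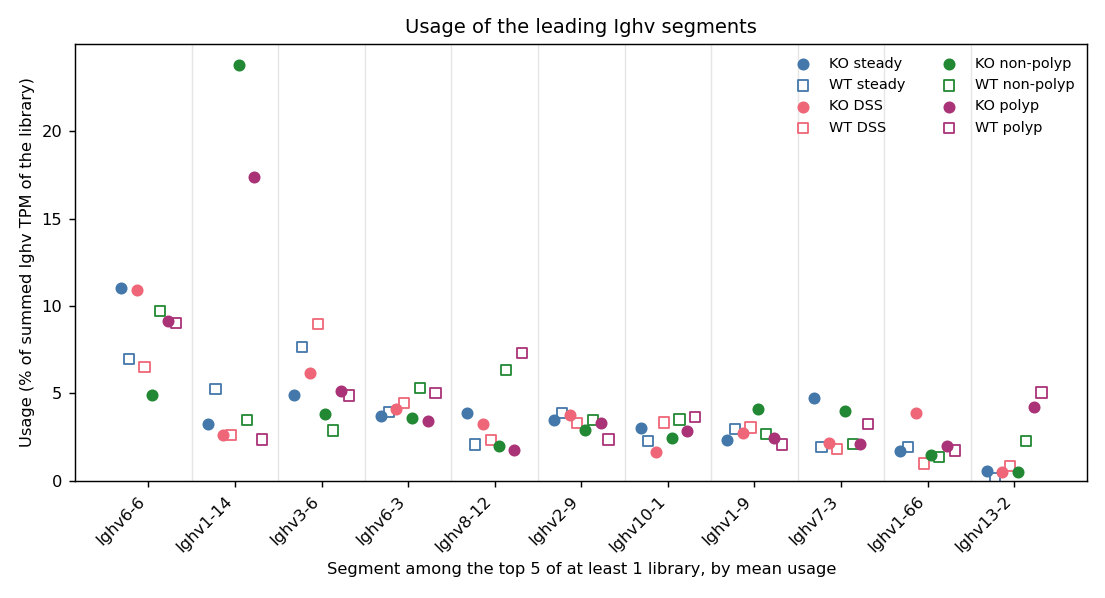
Usage, in percent of a library's summed Ighv TPM, of the 11 segments that were in the top 5 of at least 1 library; filled circles are knockout and open squares wild-type libraries, 1 point each, coloured by stage. The knockout non-polyp and polyp points of Ighv1-14 stand at 23.8% and 17.4%, and no other point exceeds 11.03%.

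At day 112 concentration of usage followed that segment. The top segment held 11.03, 10.9, 23.8 and 17.4% in knockout libraries at steady state, DSS, non-polyp and polyp, against 7.67, 8.96, 9.71 and 9.04% in wild-type libraries. The top 10 held 44.2, 44.0, 54.3 and 52.4% in knockout libraries, against 41.8, 40.3, 43.2 and 46.2% in wild-type libraries. On these annotated genes the knockout share was the higher one in each pair, but 2 other readings, chosen after the values were seen, turned that order in some pairs. Without Ighv1-14 the top 10 held 42.96% in knockout and 43.9% in wild-type non-polyp tissue, and 44.96% in knockout and 47.3% in wild-type polyps. The knockout share stayed higher in steady-state colon (45.1%, against 41.2% in wild type) and after DSS (45.2%, against 41.2%). Over assembled loci the top one held 7.83% in knockout and 15.7% in wild-type steady-state colon. The top 10 loci held 56.6% in knockout and 61.2% in wild-type steady-state colon, and 55.2% in knockout and 56.4% in wild-type polyps. In non-polyp tissue the knockout value stayed higher, at 26.3% against 14.4% for the top locus and 60.04% against 53.7% for the top 10. The top locus also held more in knockout polyps, 17.2% against 13.8%. The effective number of segments, the count of equally used segments that would give the same summed squared shares, was 31.4, 31.1, 13.8 and 18.8 in knockout libraries, against 34.8, 35.1, 32.04 and 30.8 in wild-type libraries. With Ighv1-14 left out, it was 30.4, 30.1, 36.0 and 29.5 in knockout libraries, against 34.5, 34.1, 31.1 and 29.8 in wild-type libraries, so the low day 112 values were found only with that segment. The same number for Igkv was 40.02, 35.5, 28.8 and 29.6 in knockout libraries, against 40.8, 38.6, 28.0 and 26.3 in wild-type libraries, and was lower at day 112 in both genotypes.

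**Figure D3:**
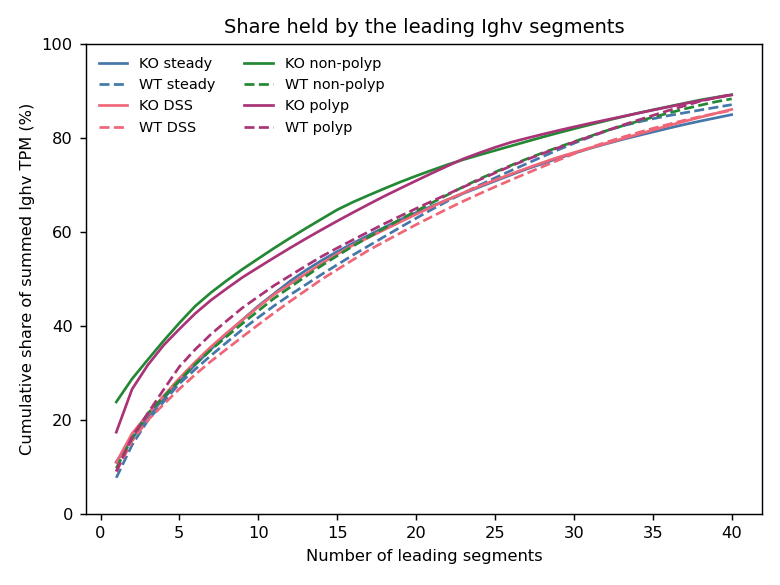
Cumulative share of summed Ighv TPM (vertical axis, percent) held by the leading segments (horizontal axis, number of segments), 1 line per library, solid for knockout and dashed for wild type. The knockout non-polyp and polyp lines start at 23.8% and 17.4% and run above the rest, with 54.3% and 52.4% held by 10 segments.

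Ighv8-12 and Ighv13-2 differed between genotypes in a direction that changed with stage. Ighv8-12 was at 137, 28.9, 51.3 and 34.4 TPM in knockout libraries at steady state, DSS, non-polyp and polyp, against 41.3, 27.0, 83.3 and 96.9 TPM in wild-type libraries. It was thus higher in knockout steady-state colon and lower in both knockout tissues of day 112. The assembled loci over it did not show the day 112 order, with 102 and 152 TPM in knockout non-polyp and polyp tissue, against 83.3 and 123 TPM in wild type; the knockout ones span 34 and 37 Ighv genes together and the wild-type ones 1 and 27. Ighv13-2 was at 19.3, 4.41, 12.9 and 81.7 TPM in knockout libraries, against 2.71, 9.97, 29.9 and 67.1 TPM in wild-type libraries, with its highest usage in polyps (4.20% in knockout, 5.06% in wild-type). Ighv7-3 was at 167, 19.5, 103 and 40.98 TPM in knockout libraries, against 38.2, 21.3, 27.9 and 43.0 TPM in wild-type libraries. It was higher in knockout steady-state and non-polyp tissue and near the wild-type value after DSS and in polyps. Among the 32 segments with a mean usage of at least 1%, the highest usage was a median 2.51 times the lowest; 5 varied less than 2-fold, with Ighv6-3 the steadiest at 1.55 times, and 4 varied over 5-fold (Ighv3-8, Ighv7-1, Ighv1-14 and Ighv13-2, the last at 37.0 times).

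At day 112 Ighv1-62-2 was lower in knockout, where Ighv1-14 was higher. It was at 12.9, 3.27, 3.34 and 1.495 TPM in knockout libraries, against 0.871, 2.09, 22.5 and 20.1 TPM in wild-type libraries. Its twin Ighv1-71 was at 3.32, 0.369, 2.20 and 1.52 TPM in knockout libraries, against 11.6 and 12.9 TPM in wild-type non-polyp and polyp tissue, and was listed at 0 in the other wild-type libraries. Both were higher in each wild-type library of day 112 than in any knockout one of that day; since their variable exons are identical, they count as 1 observation. In steady state Ighv1-62-2 was higher in knockout. The assembled loci over Ighv1-71 ran the other way at day 112, with 23.9 and 113 TPM in knockout non-polyp and polyp tissue, against 6.90 and 12.9 TPM in wild type. The knockout ones span 34 and 37 Ighv genes. Loci over Ighv1-62-2 gave 110 and 104 TPM in these knockout tissues, against 76.5 and 166 TPM in wild type. By them knockout was lower in polyps only, and they span 23 to 37 Ighv genes. Of the 16855 genes, 12 (0.0712%) were at least 4-fold higher in both wild-type libraries of that day, among them Ighv1-62-2.

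The families shared signal unevenly. Ighv1, the largest mouse family, with 54 of the 105 segments, held 29.0, 30.3, 46.0 and 38.0% in knockout libraries at steady state, DSS, non-polyp and polyp, against 30.3, 27.8, 25.8 and 24.3% in wild-type libraries. At day 112 that difference lay in Ighv1-14: the rest of the family held 22.2 and 20.6% in knockout non-polyp and polyp tissue, against 22.3 and 21.9% in wild type. Ighv6 held 8.59 to 15.1% with 3 segments, Ighv3 6.10 to 13.7% with 4, and Ighv2 7.62 to 11.1% with 8. Ighv8 held 6.88, 6.84, 5.03 and 3.86% in knockout libraries, against 3.99, 5.53, 9.25 and 10.7% in wild-type libraries. Ighv11-2, used in mice by many B-1 cell antibodies to phosphatidylcholine, was at 5.64, 2.07, 0.435 and 0.241 TPM in knockout libraries, against 4.93, 2.62, 1.52 and 0.996 TPM in wild-type libraries. Its 4 values of day 112 lay below the 4 earlier ones. By position, the one of 3 equal stretches nearest the diversity segments held 37.8 to 51.7% of the signal with 37 segments. The middle one held 34.0 to 52.5% with 38, and the distal one 9.74 to 18.8% with 30. Ighv1-14 lies in the middle stretch. That stretch held 52.5 and 47.6% in knockout non-polyp and polyp tissue, and 34.0 to 38.7% in the other libraries.

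Libraries could be compared by usage overlap, the sum over segments of the smaller of both shares. Over 28 pairs it ran from 64.8 to 85.8% with a median of 75.9%, and pairs shared 4 to 8 of their top 10 segments and 11 to 18 of their top 20. The highest overlap was that of wild-type polyp and non-polyp tissue, 85.8%. The same tissues of the knockout shared 82.5%, which ranked 3 among the pairs. Steady-state and DSS colon of 1 genotype were about as close, at 84.0% in wild type (rank 2) and 82.1% in knockout (rank 4). Without Ighv1-14 the knockout polyp and non-polyp pair shared 81.85%, and wild-type steady-state and DSS colon 84.7%. For Igkv the 2 polyp and non-polyp pairs were the highest and the second highest of the 28, at 90.7% and 89.1%. Within a stage, knockout and wild type shared 80.9% in steady-state colon, 79.1% in DSS colon, 67.0% in non-polyp and 75.2% in polyp tissue. Without Ighv1-14 the day 112 values were 75.8% and 80.6%. Pairs share libraries, so these are descriptions.

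**Figure D4:**
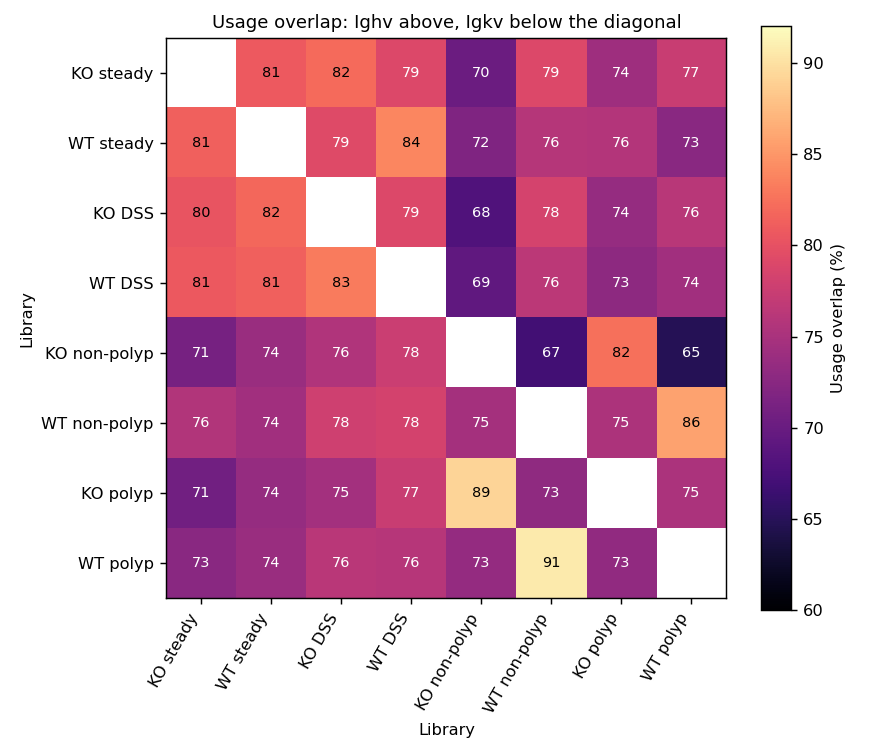
Usage overlap in percent between each pair of the 8 libraries (rows and columns), for Ighv above and Igkv below the diagonal. The cells for polyp and non-polyp tissue of 1 genotype are bright on both sides of it, at 85.8% and 82.5% for Ighv and 90.7% and 89.1% for Igkv. Those for steady-state and DSS colon of wild type and knockout are at 84.0% and 82.1% for Ighv and 81.3% and 80.3% for Igkv.

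Stage and genotype were terms of 1 limma fit to log2(TPM + 1) of the 16855 genes over all 8 libraries, which covered 94 of the 105 segments. Segments enter it because they were measurable, so counts over them are set beside those of all genes tested. With Benjamini-Hochberg adjustment over all genes, limma called 0 of 94 segments between knockout and wild type (0% of all genes). At an unadjusted p under 0.05 there were 18, all higher in knockout (of all genes 3.45% were higher and 0.914% lower at that level), and the median segment differed by 0.33 (log2), against 0.10 for all genes. Ighv1-66 was at 59.8, 34.9, 37.8 and 38.5 TPM in knockout libraries at steady state, DSS, non-polyp and polyp, against 38.7, 11.4, 18.0 and 23.0 TPM in wild-type libraries, a log2 difference of 0.97 ± 0.19 (SE; limma adjusted p = 0.705), or 0.52 by usage. By TPM it was higher in knockout at all 4 stages, as were 14 of the 94 segments (14.9%) and 11.3% of all genes. Its usage was lower in knockout steady-state colon (1.69%, against 1.95% in wild type) and differed most after DSS (3.89%, against 0.989%). Ighv1-73 and Ighv1-12 differed by 1.10 ± 0.23 and 1.15 ± 0.26 (SE; limma adjusted p = 0.705 for both). Ighv5-15, Ighv1-47 and Ighv1-23, the lowest in p among those lower in knockout, differed by -0.68, -0.50 and -0.69, or by -1.09, -1.18 and -1.17 with a pseudocount of 0.1. As usage they differed by -1.68, -3.35 and -1.78. The usage value of Ighv1-47 includes a 0 in knockout DSS colon, against 0.923 TPM in wild-type DSS colon. Without either DSS library the log2(TPM + 1) differences of the 3 were -0.43, -0.35 and -0.36. Without either DSS library the median segment differed by 0.67 (all genes 0.16), and without either polyp library by 0.30 (all genes 0.09). Without the knockout steady-state library, which held some Clec4a2, it differed by 0.25 (all genes 0.10). Without the knockout non-polyp library it differed by 0.23 (all genes 0.06). Of the heavy chain constant genes 7 of 7 tested had a positive difference, as had 64.5% of all genes. Of the 7, 4 were at an unadjusted p under 0.05 and 0 past adjustment. Of 10 B cell markers 7 were higher and 3 lower in knockout, with a median of 0.21 (log2). Of 12 plasma cell markers 8 were higher and 4 lower, with a median of 0.095. The B cell list summed to 317, 291, 43.3 and 39.3 TPM in knockout libraries, against 146, 333, 39.2 and 40.6 TPM in wild-type libraries. Ptprc, a leukocyte gene, was at 39.9, 25.4, 17.5 and 18.3 TPM, against 9.90, 33.7, 4.66 and 4.69 TPM. The part of these cells was not tested.

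**Figure D5:**
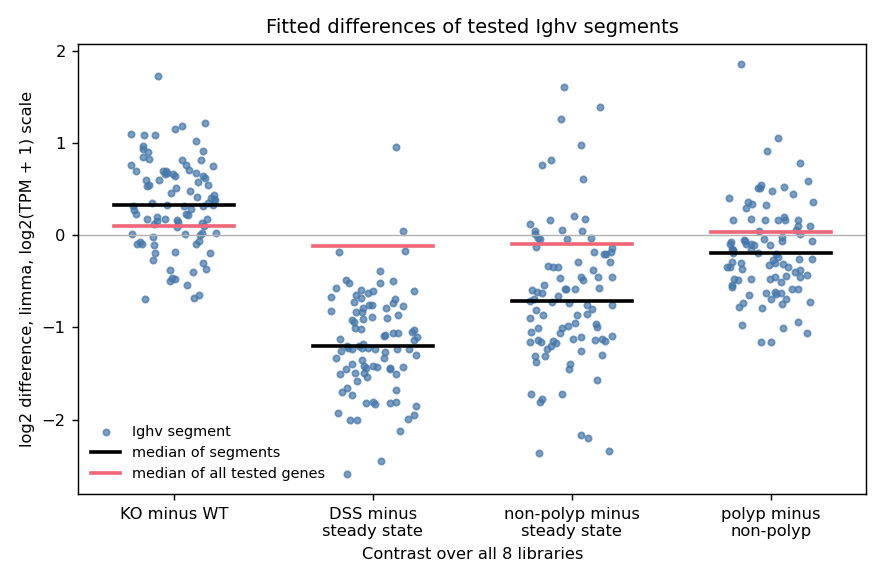
limma log2 difference on the log2(TPM + 1) scale (vertical axis) for each of the 94 tested Ighv segments (points, spread sideways at random) in the 4 contrasts; black bars are segment medians and red bars medians of all 16855 tested genes. Segment medians are 0.33, -1.20, -0.72 and -0.20, against 0.10, -0.12, -0.10 and 0.04 for all genes.

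After DSS the Ighv signal was lower than in steady state in both genotypes. The heavy chain constant genes summed to 3680 and 4543 TPM in knockout and wild-type DSS colon, against 8619 and 4645 TPM in steady state. Summed Ighv per summed constant TPM was 0.243 and 0.254 after DSS, against 0.410 and 0.427. limma called 0 of 94 segments after adjustment (0% of all genes), and 46 were lower and 0 higher at an unadjusted p under 0.05 (of all genes 4.22% were lower and 1.15% higher). The difference was negative in 92 of 94 segments and positive in 2, against 35.3% positive among all genes. The median was -1.20 (log2), against -0.12 for all genes. Ighv5-17 was at 17.2 and 10.01 TPM in knockout and wild-type DSS colon, against 47.7 and 49.1 TPM in steady-state colon of those genotypes, a difference of -1.80 ± 0.25 (SE; limma adjusted p = 0.777). Ighv1-18 was at 14.7 and 16.1 TPM after DSS, against 67.5 and 50.3 TPM in steady state, a difference of -1.86 ± 0.27 (SE; limma adjusted p = 0.777). In both, the DSS values lay below both steady-state values. By usage the mean differences over the genotypes were -0.50 and -0.54. For Ighv5-17 this mean joins a fall in wild type (2.475 to 0.866%) and a rise in knockout (1.35 to 1.92%). Usage of Ighv1-18 fell in both genotypes. Ighv1-47, listed at 0 in knockout DSS colon, differed by -2.01 (-3.86 with a pseudocount of 0.1, where that 0 weighs more). The 2 segments on the higher side, Ighv8-2 and Ighv9-4, differed by 0.96 ± 0.96 and 0.05 ± 0.77 (SE). Ighv8-2 was at -0.79 without the knockout and 2.70 without the wild-type steady-state library, and Ighv9-4 at 1.495 and -1.40. Most of the drop was in the knockout pair, where 80 of 94 segments were at least 2-fold lower after DSS (7.42% of all genes tested), against 22 in the wild-type pair (3.73%); the difference between the pairs was not tested. By usage, which takes out the lower Ighv sum, 8 of 105 segments were at least 2-fold higher and 15 lower in the knockout pair, and 9 higher and 7 lower in the wild-type pair. Without the knockout steady-state library the median segment differed by -0.97 (all genes -0.11), and without the knockout DSS library by -0.70 (all genes -0.02). The Igkv segments had a median of -1.11 with 45 of 92 lower at an unadjusted p under 0.05. Of 12 plasma cell markers 8 were lower and 4 higher, with a median of -0.34 (log2), 0 past adjustment and 1 at the unadjusted level. That one was Jchain, which links IgA dimers, at 939 and 704 TPM in knockout and wild-type DSS colon, against 1489 and 1502 TPM in steady state. The list summed to 1595 and 1508 TPM after DSS, against 2318 and 2284 TPM. The 10 B cell markers summed to 291 and 333 TPM after DSS, against 317 and 146 TPM in steady state; their part in the result was not tested.

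Non-polyp tissue of day 112 was set against steady state. limma called 0 of 94 segments after adjustment, against 0.326% of all genes, and 27 segments were lower and 0 higher at an unadjusted p under 0.05 (of all genes 11.8% were lower and 4.76% higher). The median was -0.72 (log2), against -0.10 for all genes. The difference was positive in 15 of 94 segments and in 42.4% of all genes. Ighv3-8 was at 12.9 and 18.6 TPM in knockout and wild-type non-polyp tissue, against 117 and 60.1 TPM in steady state, a difference of -2.37 ± 0.42 (SE; limma adjusted p = 0.0986). Ighv11-2 and Ighv1-83 differed by -1.72 ± 0.36 and -1.46 ± 0.31 (SE; limma adjusted p = 0.121 and 0.129). On the higher side Ighv1-71, Ighv13-2 and Ighv1-42 differed by 1.61, 1.26 and 0.76, none past the unadjusted level. Without the wild-type steady-state library they were at -0.11, -0.28 and 0.12, and without the knockout one at 3.33, 2.80 and 1.41. Without the wild-type non-polyp library limma called 3 segments, Ighv3-8, Ighv11-2 and Ighv1-84 (adjusted p = 0.0305, 0.0339 and 0.0448), among 2238 genes called in that fit; the segments at the unadjusted level were 15 without the knockout steady-state library and 30 without the knockout non-polyp library. B cell markers moved with this contrast: 10 of 10 were lower, with a median of -2.49 and 1 past adjustment (Fcer2a, adjusted p = 0.0373), and the list summed to 43.3 and 39.2 TPM in knockout and wild-type non-polyp tissue, against 317 and 146 TPM in steady state. None of the 10 was at 0. Of 7 constant genes tested 5 were lower, with 0 past adjustment, among them Ighm, the IgM constant gene, at -1.95 (log2). Igha and Ighg1 were at 0.55 and 0.81, and the constant genes summed to 10368 and 7479 TPM in knockout and wild-type non-polyp tissue, against 8619 and 4645 TPM in steady state. Of the 12 plasma cell markers 8 were lower, with a median of -0.12, 0 past adjustment and 2 at the unadjusted level (Irf4 at -1.25 and Derl3 at -0.92). Their sum, mostly Jchain, was 2480 and 2214 TPM, against 2318 and 2284 TPM. The part of these cells in the result was not tested.

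Between polyp and non-polyp tissue limma called 0 of 94 segments after adjustment (0% of all genes) and 0 at an unadjusted p under 0.05 (2.94% of all genes). The median segment differed by -0.20 (log2), against 0.04 for all genes. Ighv13-2 had the largest difference, 1.86 ± 0.86 (SE; limma adjusted p = 0.858), with 81.7 and 67.1 TPM in knockout and wild-type polyps, against 12.9 and 29.9 TPM in non-polyp tissue. Both polyp values lay above both non-polyp values. The difference was 0.99 without the knockout and 2.72 without the wild-type non-polyp library. Ighv5-15 and Ighv2-9-1 differed by 0.91 and 1.06, and Ighv5-17, Ighv1-23 and Ighv7-1 by -0.58, -1.003 and -1.06. With 1 library left out Ighv5-15 ranged from 0.56 to 1.27, Ighv2-9-1 from 0.68 to 1.43, Ighv1-23 from -1.52 to -0.48 and Ighv7-1 from -1.71 to -0.40. Since the knockout non-polyp library resembled polyps in Wif1 and Cnn1, it was left out. The median segment then differed by -0.02 (log2), against 0.11 for all genes.

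Within single pairs of libraries, differences of at least 2-fold on log2(TPM + 1) were counted over the 94 segments, with no test. In steady state 34 were higher and 2 lower in knockout than in wild-type colon (3.59% and 1.18% of all genes tested). After DSS 5 were higher and 23 lower (1.86% and 2.8%). In non-polyp tissue 27 were higher and 5 lower (14.7% and 9.94%), and in polyps 21 were higher and 5 lower (3.67% and 2.24%). Usage, which sets aside the Ighv sum, did not keep the excess of higher segments at day 112. Over all 105 segments it put 15 higher and 10 lower in knockout steady-state colon, against 36 and 3 by TPM. The usage counts were 13 higher and 20 lower at DSS day 12, 9 higher and 19 lower in non-polyp tissue, and 12 higher and 14 lower in the polyp pair. Usage is a share, so a large share of 1 segment lowers all others, and how far that changes these counts was not tested. Ighv1-14 held 23.8 and 17.4% in knockout non-polyp and polyp tissue, against 3.495 and 2.36% in wild type. Without Ighv1-14 the knockout Ighv sum was still 1.54 and 1.24 times the wild-type one in these tissues. Ighv2-4 had the largest steady-state difference, at 12.1 TPM in knockout and 0.618 TPM in wild-type colon, and Ighv15-2 the largest in the other direction, at 0.599 and 10.9 TPM.

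The recombinase genes that join segments were read beside them. Rag2, a subunit of the recombinase, was listed at 0 in all libraries, and Rag1, its partner, was at most 0.0333 TPM.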

How the data were processed

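Total RNA of flash-frozen mouse colon and polyps was used with the NEBNext Ultra RNA library kit, per the labels' protocols. The authors deposited coverage (signal per base), FPKM and TPM per gene, per the file headers. They used StringTie and GRCm38 (mm10), per the submitters' processing notes; no source used here gives the aligner, annotation release or use of strand. In the 6 files other than DSS, loci assembled from the reads list the same library a second time, so annotated TPM was used alone. TPM and FPKM kept a fixed ratio within 0.1% for every Ighv value checked; 35 values in 10 other genes did not, and these genes, with 13 listed on several rows, were left out of tests.

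Groups were read from sample titles. Gene type, coordinates and sequences came from GENCODE vM21, in which all 185 Ighv genes had equal coordinates. Identity was computed with edlib 1.3.9.post1. limma 3.58.1 in R 4.3.3 was run with trend on log2(TPM + 1), which understates the change of low genes, over genes averaging 1 TPM or more, with 3 residual degrees of freedom. A p-value is set against the spread left after stage and genotype. With 1 library per group that spread joins library noise, which may be technical, to genotype differences that change with stage. The fit treats libraries as independent, though the labels do not say which share an animal. The test was checked on simulated data. Alternatives were the pseudocount, the filter, rescaling, FPKM and each library left out. Named segments are the top 5 of each library, up to 3 per direction and contrast by p, and the 3 on each side of the limit. A few were named for extreme pair values (Ighv1-62-2, Ighv1-71, Ighv2-4, Ighv15-2) or for a small p with 1 library left out (Ighv1-84), after these were seen. Segments and gene lists were chosen with earlier results of these data known.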

Additional observations from a re-analysis of the deposited data

Results flagged for a closer look

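Several quantities pointed in opposite directions in different stages when knockout was set against wild type, and none of these contrasts between stages was tested. The summed Ighv TPM had log2 ratios of knockout over wild type of 0.83 in steady-state colon, -0.37 in DSS colon, 0.97 in non-polyp and 0.55 in polyp tissue. The number of segments at 1 TPM or more had log2 ratios of 0.14, -0.22, 0.032 and 0.052 in the same order. Among single segments, Ighv10-1 differed by 1.21 at steady state and -1.32 after DSS on log2(TPM + 1), Ighv13-2 by 2.45 at steady state and -1.15 in non-polyp tissue, and Ighv8-12 by 1.70 at steady state and -1.47 in polyps. Each value rests on 1 library per group.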

How the results depend on the processing

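No paired analysis was possible because each group has 1 library and the labels give no shared replicate numbers. Adjusted calls among segments were 0 in all 4 contrasts under every alternative run, except 3 in non-polyp minus steady state without the wild-type non-polyp library (range 0 to 3). With 1 library left out, segments at an unadjusted p under 0.05 ranged from 11 to 37 for genotype, 20 to 64 for DSS, 15 to 34 for non-polyp minus steady state and 2 to 10 for polyp minus non-polyp, which also gave 2 with no filter and 1 after median-of-ratios rescaling; in such fits the lone library of a stage is assumed to vary like the others. Rescaling moved the median of all genes in the genotype contrast to 0.00 from 0.10 and that of segments to 0.23 from 0.33. Leaving out 1 library turned the sign of Ighv8-2 (-0.79, range to 2.70) and Ighv9-4 (-1.40 and -0.66, range to 1.495) after DSS, and of Ighv13-2 (-0.28, range to 2.80) and Ighv1-71 (-0.11, range to 3.33) in non-polyp tissue. At a limit of 5 TPM, 46 knockout and 51 wild-type DSS segments, 59 knockout and 50 wild-type non-polyp segments and 50 wild-type polyp segments remained above it. Chosen after seeing the data, leaving out Ighv1-14 gave a top share of 6.45% and an effective number of 36.0 in knockout non-polyp tissue, and 11.1% and 29.5 in knockout polyps. Assembled loci used in place of annotated genes, since adding them as planned would count reads again, gave top shares of 7.83% in knockout and 15.7% in wild-type steady state, which turns the order of the genotypes, and of 17.2% in knockout and 13.8% in wild-type polyps. Over all 105 segments with usage in place of TPM, those past 2-fold numbered 25 for genotype in steady state (15 higher and 10 lower in knockout). They numbered 28 in non-polyp tissue (9 and 19) and 26 in polyps (12 and 14). The excess of higher segments was thus lost in polyps and turned in non-polyp tissue. The larger knockout share of Ighv1-14 enters these usage counts in both tissues, and they were not repeated without it. Segments past 2-fold by usage numbered 23 and 16 for DSS minus steady state in knockout and wild type, and 24 and 26 for non-polyp minus steady state. With a pseudocount of 0.1 they numbered 51, 56 and 44 for genotype after DSS, in non-polyp and in polyp tissue, 42 for DSS in wild type, and 26 and 33 for polyp minus non-polyp in knockout and wild type. Values with no test count as moved beyond 1.5 times. The cause of these changes was not tested. The planned search for an octamer in promoters was not run.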
